A study of Homo sapiens with 27 samples.

Results

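The 10 genes described here encode proteins of the tight junction and the apical membrane of epithelial cells: CLDN1, CLDN3, CLDN4, CLDN7, OCLN, MARVELD2, F11R, CXADR, MAL2 and CGN. They are 10 of the 27546 gene symbols listed across the read count tables of 3 prostate cancer lines. Each is listed once in every table, and all 10 passed the filter on low counts in every line. The genes were chosen by name with earlier results of these libraries known. CXADR and MAL2 were selected on their measured values, CXADR for its fall in PC3 and MAL2 for its rise in DU145 after RIPK2 was targeted, so those values, with the control levels they start from, are given as descriptions, without a test.

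Tight junctions seal the space between neighbouring epithelial cells and separate the apical from the basolateral membrane. Their strands are built from claudins, four-pass membrane proteins that set which ions and solutes pass between cells, together with the related four-pass proteins occludin (OCLN) and tricellulin (MARVELD2), the latter concentrated where several cells meet. F11R (junctional adhesion molecule A) and CXADR (the coxsackievirus and adenovirus receptor) are immunoglobulin-like adhesion proteins of the junction, CGN (cingulin) is a scaffold on its cytoplasmic face that ties it to actin and myosin, and MAL2 is a lipid raft protein needed for transport to the apical membrane. Carcinoma lines often keep part of this set and lose other members.

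RNA was measured by strand-specific mRNA sequencing in 22Rv1, an androgen receptor-positive prostate carcinoma line, and in DU145 and PC3, both derived from prostate carcinoma metastases. Each line had 3 libraries of cells with control gRNA 1, labelled as wild type, and 3 libraries of each of 2 populations labelled as RIPK2 knockout. The RIPK2 guides were gRNA 1 and gRNA 10 in 22Rv1, and gRNA 2 and gRNA 10 in DU145 and in PC3. RIPK2 encodes the kinase that relays signals from the peptidoglycan sensors NOD1 and NOD2, and the design asks which transcripts change when it is knocked out. Whether each population grew from a single cell or from many is not stated in the labels, nor is it stated whether the 3 libraries of a group came from separate cultures, so p-values measure the spread between these libraries, which may be technical.

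Library totals lay between 17958558 and 20650819 counts. Mean RIPK2 mRNA was 52.0% of control with gRNA 1 and 32.2% with gRNA 10 in 22Rv1, 27.8% with gRNA 2 and 81.9% with gRNA 10 in DU145, and 34.2% with gRNA 2 and 45.0% with gRNA 10 in PC3; the DU145 gRNA 10 value did not pass the test (adjusted p = 0.0614). In 2 groups the third library is treated as standing apart from the others. In 22Rv1 gRNA 1 mitochondrial genes took 16.7% of its counts against 1.92% and 2.10%. In DU145 gRNA 2 they took 2.89% against 1.75% and 2.12%, a smaller gap, and 2.46% to 2.77% in the DU145 gRNA 10 libraries. That DU145 gRNA 2 library also held CGN at 37.8 CPM against 88.2 and 89.3 CPM. In the 22Rv1 controls library 1 had a mitochondrial share of 0.515% against 1.24% and 1.28%, and was not set apart. Each library was also left out in turn. The epithelial keratins KRT8 and KRT18 were present in every line, at 122 CPM (read counts relative to the size of each library, with TMM factors applied) or more for KRT8 and 179.9 CPM or more for KRT18. Of the fibroblast list, 7 of 8 genes were in the 22Rv1 and DU145 tables and 8 of 8 in that of PC3. The summed level ran from 10.6 to 32.9 CPM in 22Rv1 and from 5.92 to 31.7 CPM in DU145. In PC3 it ran from 56.9 to 77.7 CPM. COL1A1 was the highest of the list in every group except the PC3 controls. There COL3A1 was at 36.4 CPM, COL1A1 at 27.5 CPM and PDGFRA at 10.6 CPM. With gRNA 2 and gRNA 10 in PC3, COL1A1 was at 49.2 and 54.15 CPM, COL3A1 at 12.45 and 17.9 CPM and PDGFRA at 1.33 and 0.514 CPM. DCN reached at most 2 counts in any library. The 6 endothelial genes summed to 20.1 to 20.96 CPM in the PC3 controls. With gRNA 2 their sum was 44.5 to 50.1 CPM, and with gRNA 10 58.4 to 63.5 CPM. ESAM was the highest in the PC3 controls (17.2 CPM) and with gRNA 2 (25.7 CPM). KDR, at 1.26 and 12.9 CPM in those groups, was the highest with gRNA 10 (43.6 CPM). PECAM1 was at 1.89, 9.19 and 7.03 CPM, while CDH5, TEK and VWF reached at most 2 counts in PC3. Leukocyte genes summed to at most 6.04 CPM in any library. The part of these lists in the results below was not tested.

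The stretches before a RefSeq transcription start are shown for 4 members that the results below return to. These are MARVELD2 and OCLN, which lie next to each other on chromosome 5, CLDN3, which lies beside CLDN4 on chromosome 7, and CGN. The stretches come from RefSeq (GRCh38.p14), which held windows for 7 of the 10 genes, and are given without any annotated exon. Those of OCLN and CGN lie inside the GENCODE spans of these genes, which start at chr5:69492292 and chr1:151510510. For these members the RefSeq start used is therefore downstream of the GENCODE start. Capitals mark AACNGGTT, the letters recognised by grainyhead factors such as GRHL2.
MARVELD2, chr5:69414866-69415064, plus strand: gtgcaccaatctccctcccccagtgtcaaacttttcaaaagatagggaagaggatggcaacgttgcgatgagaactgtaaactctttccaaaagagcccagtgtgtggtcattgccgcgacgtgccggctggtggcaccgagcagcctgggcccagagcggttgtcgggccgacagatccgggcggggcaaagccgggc
OCLN, chr5:69492660-69492789, plus strand: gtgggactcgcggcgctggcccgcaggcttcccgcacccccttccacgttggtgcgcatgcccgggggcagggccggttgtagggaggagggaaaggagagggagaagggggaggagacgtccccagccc
CLDN3, chr7:73770271-73770520, minus strand: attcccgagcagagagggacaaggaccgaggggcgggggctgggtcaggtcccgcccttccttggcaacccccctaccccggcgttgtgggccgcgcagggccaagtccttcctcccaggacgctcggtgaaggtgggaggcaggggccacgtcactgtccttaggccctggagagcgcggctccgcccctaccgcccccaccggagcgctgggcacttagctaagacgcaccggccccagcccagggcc
CGN, chr1:151511137-151511386, plus strand: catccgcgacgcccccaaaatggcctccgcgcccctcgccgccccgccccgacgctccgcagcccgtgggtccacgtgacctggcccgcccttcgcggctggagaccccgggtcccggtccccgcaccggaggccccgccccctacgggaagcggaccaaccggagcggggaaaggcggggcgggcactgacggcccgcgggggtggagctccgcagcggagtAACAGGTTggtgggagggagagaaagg

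Both motifs were searched on both strands of the 250 bases before the RefSeq start. AACNGGTT occurred in the window of CGN and in no other member's, and 1.49% of 35116 RefSeq promoter windows hold it. The CGN match lies inside the GENCODE span of that gene. CAGGTG, the E-box letters bound by the ZEB and SNAI repressors, occurred once in each OCLN window and 4 times in 1 of the CLDN7 windows, against 17.5% of all windows, none of them within the stretches printed, and no member's window held both motifs. A match in these letters is a description and does not show a binding site.

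The control libraries of the 3 lines held different members of the set, as the plot of control levels per kilobase shows. Levels of different genes are compared only as CPM per kilobase of the principal GENCODE transcript. In 22Rv1 the highest were MAL2 (127 CPM per kb), CLDN7 (81.2) and CLDN3 (28.5), and CLDN1 was lowest at 0.103. In DU145 CLDN1 was highest (81.1), followed by CLDN3 (24.1) and CGN (20.01), and MAL2 was lowest at 0.309. In PC3 MAL2 (178) and CLDN4 (94.5) led, and OCLN was lowest at 0.461.

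**Figure D1:**
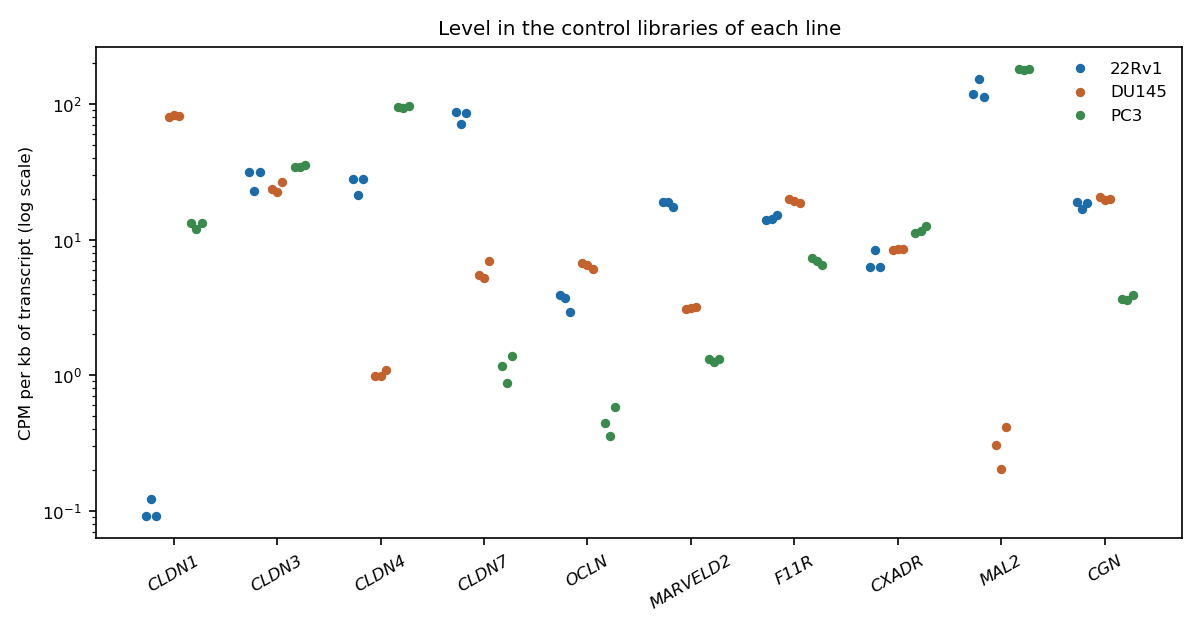
Level of each gene in the 9 control libraries, as CPM per kilobase of the principal transcript on a log axis; each point is 1 library, coloured by line. CLDN1 in 22Rv1 and MAL2 in DU145 sit at the bottom of the scale, while CLDN3 and CXADR lie close together in the 3 lines.

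Each member's control level was compared between lines in a model of all 27 libraries, in which the line and its table cannot be told apart. MAL2 in DU145 and CXADR in PC3 are left out of the comparisons that hold those controls. Between DU145 and 22Rv1, 6 of 9 members differed, where 75.9% of the 16322 genes tested did. CLDN1 was 9.61 higher on the log2 scale in DU145 (SE 0.23, adjusted p = 1.49e-22), at 277, 288 and 282 CPM against 0.320, 0.430 and 0.322 CPM in 22Rv1. CLDN4 differed by -4.64 (SE 0.18), CLDN7 by -3.79 (SE 0.13) and MARVELD2 by -2.55 (SE 0.12), all lower in DU145. CXADR, CLDN3 and CGN did not pass the test in this pair, with log2 differences of 0.30 (SE 0.16), -0.24 (SE 0.13) and 0.15 (SE 0.17); all 3 passed when both libraries that stood apart were left out of the model, which then called 9 of 9.

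Between PC3 and 22Rv1, 9 of 9 members differed, against 80.5% of all genes, and between PC3 and DU145 8 of 8 did, against 75.9%. PC3 was lower than both other lines in CLDN7, OCLN, MARVELD2, F11R and CGN, and higher than both in CLDN4 and CLDN3. MAL2 was 0.64 higher on the log2 scale in PC3 than in 22Rv1 (SE 0.10). CLDN4, at 392, 386 and 403 CPM, was 6.67 higher on the log2 scale than in DU145 (SE 0.19, adjusted p = 3.97e-21). CLDN7, at 1.80, 1.34 and 2.14 CPM, was the reverse case, at -6.00 against 22Rv1 (SE 0.15, adjusted p = 3.41e-22). CLDN1 stood between the other lines in PC3, 7.10 above 22Rv1 and at -2.51 against DU145 on the log2 scale (SE 0.24 and 0.14).

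Members changed in both directions after RIPK2 was targeted, except with gRNA 10 in 22Rv1, where all calls were higher, and in DU145, where all were lower. In 22Rv1, 6 of 10 members changed with gRNA 1, 3 higher and 3 lower, where 48.5% of all 15198 genes tested changed, and 3 of 10 changed with gRNA 10, all higher, against 40.6%. In DU145, leaving out MAL2, 5 of 9 members changed with gRNA 2, 3 higher and 2 lower, against 34.0% of all genes, and 6 of 9 changed with gRNA 10, all lower, against 40.0%. In PC3, leaving out CXADR, 8 of 9 changed with gRNA 2, 5 higher and 3 lower, against 63.6%, and 8 of 9 changed with gRNA 10, 4 higher and 4 lower, against 73.5%. The median log2 change of these members was 0.16 and 0.17 in 22Rv1, 0.01 and -0.72 in DU145, and 0.29 and 0.18 in PC3, where the first value of each pair is gRNA 1 or gRNA 2 and the other gRNA 10; the median of all genes was at most 0.02 in size in these 6 comparisons. Both guides of a line share their control libraries, so their counts are not independent. In bulk RNA, fewer cells with a transcript and less of it per cell cannot be told apart.

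**Figure D2:**
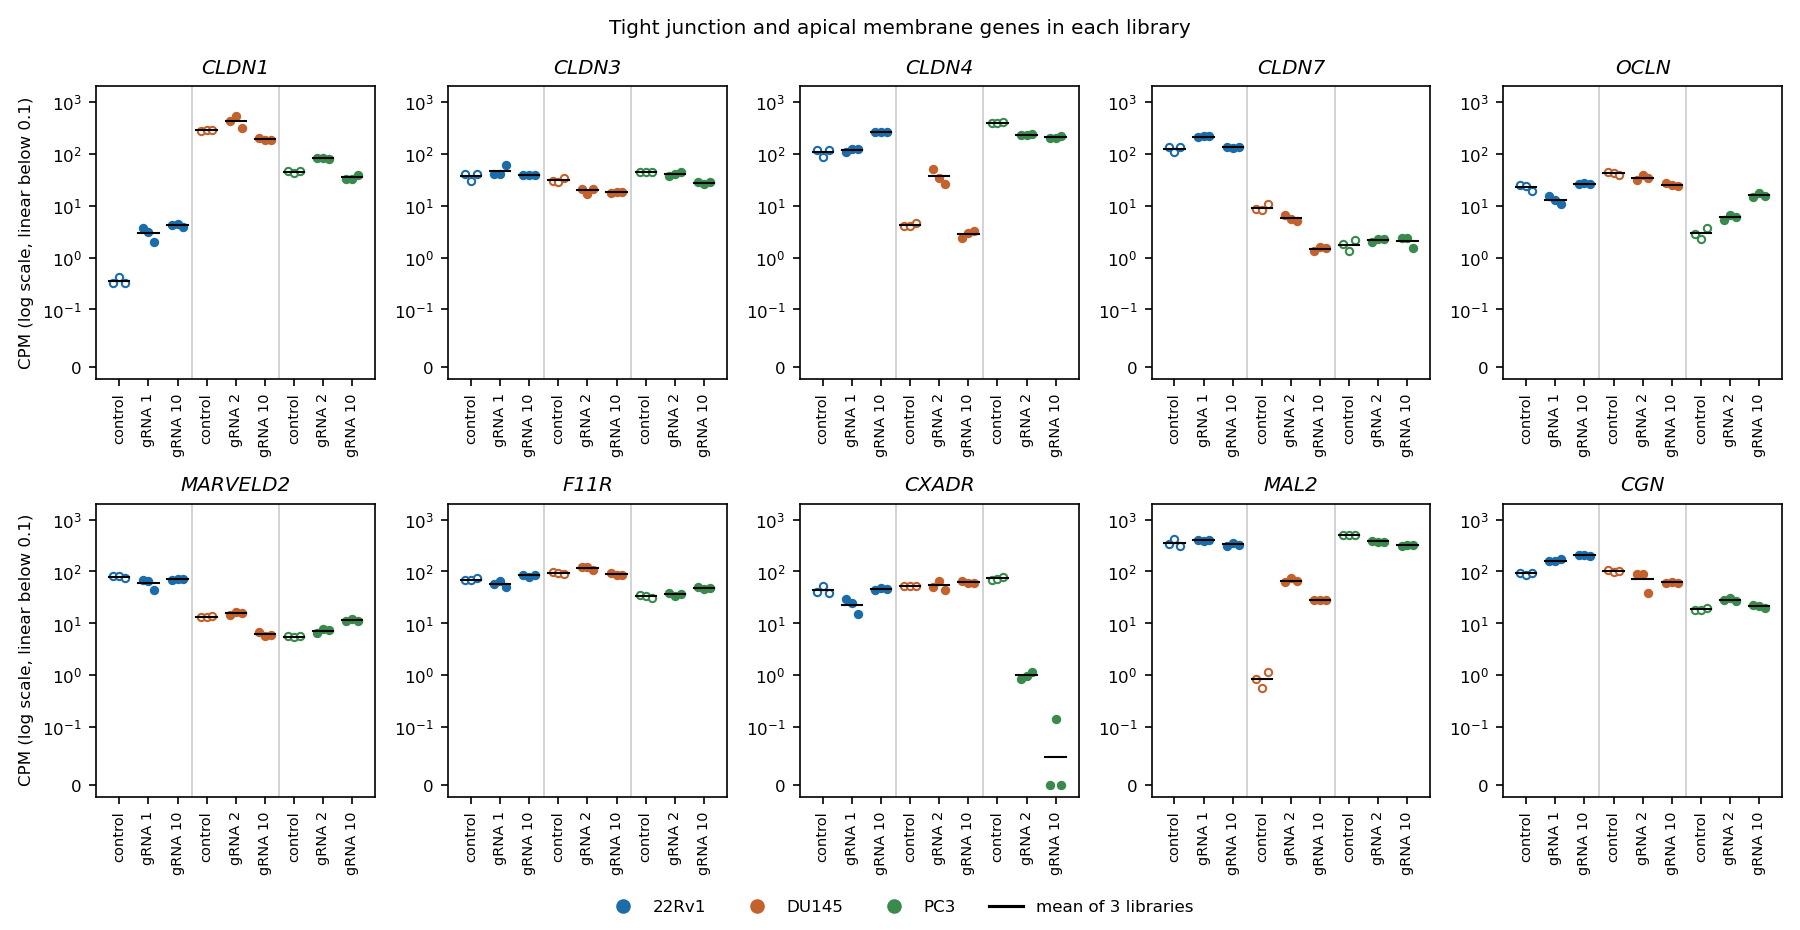
CPM of each gene in all 27 libraries, on an axis that is logarithmic above 0.1 CPM and linear below it; open points are control libraries, filled points RIPK2 guide libraries, and the bar is the mean of 3 libraries. CXADR in PC3 and MAL2 in DU145 leave the range of their controls by the widest margin, and CLDN1 in 22Rv1 and CLDN4 in DU145 gRNA 2 follow.

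Leaving out single libraries moved 2 of these counts by more than 1.5 times. The 22Rv1 gRNA 10 count became 5 of 10 without 22Rv1 gRNA 1 library 3, which enters through the shared estimate of spread; F11R and MARVELD2 were the genes added. The DU145 gRNA 2 count became 3 of 9 without control library 2 and 2 of 9 without control library 3, and 6 of 9 without the gRNA 2 library that stood apart. The gene added in the last case was CGN, whose low value is among those given for setting that library apart. Without that library the DU145 gRNA 10 count was 8 of 9, since that library enters the shared spread. The 22Rv1 gRNA 1 count was 6 of 10 without its library 3 as well.

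**Figure D3:**
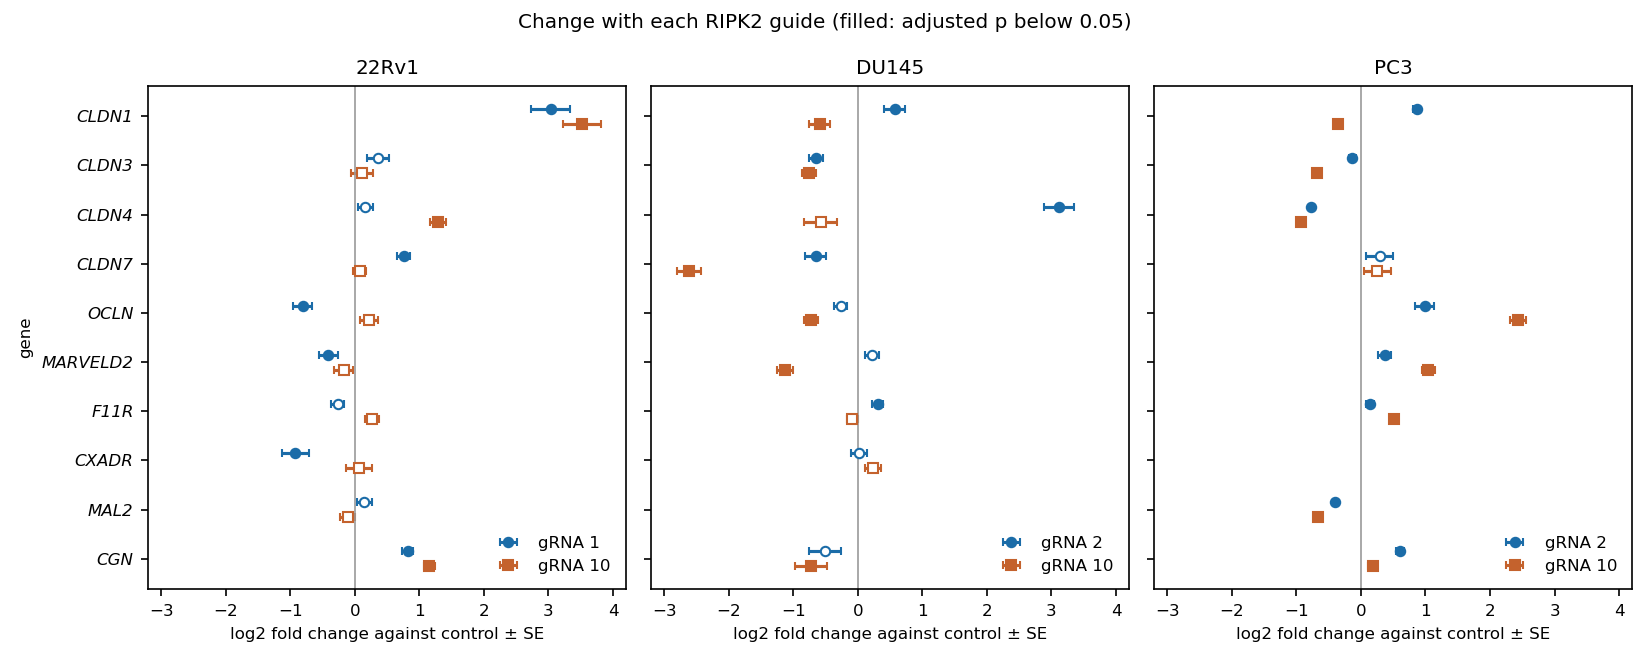
Log2 fold change of each gene against the control libraries of its line, with its standard error, for each RIPK2 guide; filled symbols passed an adjusted p of 0.05. CXADR in PC3 and MAL2 in DU145 were selected on these values and are left out of the plot. CLDN4 in DU145 stands at 3.12 with gRNA 2 and -0.58 with gRNA 10, while CLDN1 in 22Rv1 stands at 3.03 and 3.52 with the 2 guides.

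Claudins carried the largest tested changes. CLDN1, a barrier-forming claudin, had 6, 8 and 6 counts in the 22Rv1 controls, 70, 58 and 34 counts with gRNA 1 and 83, 84 and 75 counts with gRNA 10, so that every knockout library was above every control. It rose by 3.03 on the log2 scale with gRNA 1 (SE 0.30, adjusted p = 1.80e-05; 3.23 without the library that stood apart) and by 3.52 with gRNA 10 (SE 0.29, adjusted p = 5.21e-06). At 2.96 and 4.16 CPM it stayed the lowest of the 10 members per kilobase in both 22Rv1 knockout groups.

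In DU145, where CLDN1 is abundant, it went in opposite directions with the 2 guides. The controls held 277, 288 and 282 CPM, the gRNA 2 libraries 419, 539 and 305 CPM, and the gRNA 10 libraries 199, 183 and 182 CPM. Both shifts passed the test, at 0.58 (SE 0.16, adjusted p = 0.0203) and -0.59 (SE 0.16, adjusted p = 0.0155). The lowest gRNA 2 value is that of the library that stood apart, and the change was 0.77 without it. The rise was lost in 4 of 15 alternatives and the fall in 2 of 15, with adjusted p up to 0.0684 and 0.0571.

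PC3 showed the same split of CLDN1 between guides. From 46.3, 41.6 and 46.3 CPM in the controls it rose to 84.0, 80.7 and 80.3 CPM with gRNA 2 (log2 change 0.87, SE 0.05) and fell to 32.6, 33.2 and 38.8 CPM with gRNA 10 (-0.36, SE 0.06). Neither knockout group overlapped the controls.

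CLDN4, which restricts paracellular sodium, was the member that differed most between guides among those tested. In DU145 it went from 4.13, 4.12 and 4.54 CPM to 51.4, 33.3 and 26.3 CPM with gRNA 2, a log2 change of 3.12 (SE 0.23, adjusted p = 1.14e-05), and 3.31 without the library that stood apart. With gRNA 10 the DU145 libraries held 2.42, 2.95 and 3.20 CPM, below every control, but the change of -0.58 did not pass the test (SE 0.26, adjusted p = 0.104). It passed in 3 of 15 alternatives, each of which leaves out 1 or all of the gRNA 2 libraries, and 1 of them is the alternative without the library that stood apart (adjusted p from 0.00205 to 0.263 over the 15). In 22Rv1 the order was reversed: 116, 87.9 and 115 CPM in the controls, 109, 124 and 124 CPM with gRNA 1, and 264, 261 and 256 CPM with gRNA 10, a log2 change of 0.16 (adjusted p = 0.267) and of 1.29 (SE 0.12, adjusted p = 1.07e-05). In PC3, where its control level was highest, CLDN4 fell with both guides, to 230, 226 and 237 CPM (-0.77, SE 0.04) and to 204, 200 and 220 CPM (-0.92, SE 0.04).

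CLDN3, another classic epithelial claudin and the neighbour of CLDN4 on chromosome 7 (chr7:73768997-73770270, minus strand, 29.3 kb from CLDN4), fell with both guides in DU145. Its levels went from 29.8, 28.5 and 33.8 CPM to 20.7, 17.0 and 20.96 CPM with gRNA 2 (-0.65, SE 0.11) and to 17.4, 18.6 and 18.4 CPM with gRNA 10 (-0.76, SE 0.11). In PC3 it fell from 43.3, 43.8 and 44.8 CPM to 27.8, 26.3 and 27.8 CPM with gRNA 10 (-0.69, SE 0.06); the gRNA 2 libraries, at 36.3, 40.4 and 43.8 CPM, overlapped the controls and their change of -0.13 (SE 0.06, adjusted p = 0.0458) was lost in 7 of 15 alternatives, with adjusted p from 0.00511 to 0.350 over them. In 22Rv1 no change of CLDN3 passed the test (0.36, SE 0.17, and 0.11, SE 0.17), and libraries overlapped.

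CLDN7, which also binds the adhesion molecule EPCAM, fell in DU145 from 8.40, 8.06 and 10.6 CPM to 6.55, 5.55 and 5.09 CPM with gRNA 2 and to 1.31, 1.60 and 1.502 CPM with gRNA 10. The log2 changes were -0.65 (SE 0.16, adjusted p = 0.0107) and -2.61 (SE 0.19, adjusted p = 4.50e-06); the first did not pass without control library 3 (adjusted p = 0.0585). In 22Rv1 it rose with gRNA 1, from 135, 109 and 132 CPM to 204, 215 and 216 CPM (0.76, SE 0.10), and stayed within the control range in the 3 gRNA 10 libraries (0.07, SE 0.10). In PC3 it was near 2 CPM in all groups and no change passed (0.29, SE 0.21, and 0.26, SE 0.21). The 3′ ends of CLDN7 and ELP5 overlap on opposite strands, ELP5 had 1172 to 1548 counts in DU145, and the strand setting of the counting is not given in the sources used here, so low CLDN7 counts could hold reads of ELP5.

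OCLN and MARVELD2, both proteins with the MARVEL fold, lie 48.0 kb apart on the same strand of chromosome 5 (OCLN at chr5:69492292-69558104 and MARVELD2 at chr5:69415065-69444330, GRCh38). In PC3 both rose with both guides, further with gRNA 10. OCLN had 57, 46 and 76 counts in the controls, 107, 132 and 120 with gRNA 2 and 307, 367 and 322 with gRNA 10, with no overlap between groups. The log2 changes were 0.99 (SE 0.15, adjusted p = 1.64e-06) and 2.43 (SE 0.12, adjusted p = 1.28e-16). MARVELD2 went from 5.69, 5.37 and 5.71 CPM to 6.60, 7.69 and 7.37 CPM (0.37, SE 0.11) and to 11.3, 12.1 and 11.3 CPM (1.05, SE 0.10).

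In DU145 both genes went the other way with gRNA 10. OCLN fell from 43.4, 41.8 and 39.3 CPM to 26.7, 24.8 and 23.8 CPM (-0.72, SE 0.11), and MARVELD2 from 13.2, 13.5 and 13.8 CPM to 6.80, 5.64 and 6.11 CPM (-1.13, SE 0.12, adjusted p = 4.93e-05). With gRNA 2 neither passed the test, at -0.26 (SE 0.10) and 0.22 (SE 0.11). In 22Rv1 OCLN fell with gRNA 1 from 25.0, 24.0 and 18.8 CPM to 15.1, 13.0 and 10.6 CPM (-0.80, SE 0.15, and -0.69 without library 3) and was at 26.4, 26.99 and 25.5 CPM with gRNA 10 (0.22, SE 0.14). MARVELD2 fell with gRNA 1 to 69.6, 65.4 and 44.0 CPM from 80.8, 81.6 and 75.2 CPM; the lowest value is the library that stood apart, the change of -0.41 (SE 0.15, adjusted p = 0.0406) was -0.24 without it (adjusted p = 0.0126), and it was lost in 7 of 15 alternatives, with adjusted p up to 0.106. A pseudogene listed as OCLNP1 held 27 to 63 counts in the 22Rv1 libraries, so a share of OCLN reads may have been counted elsewhere there.

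F11R, the junctional adhesion molecule, had no change above 0.52 in size on the log2 scale. In PC3 it went from 35.2, 33.6 and 31.2 CPM to 49.3, 45.8 and 48.0 CPM with gRNA 10 (0.52, SE 0.06, adjusted p = 2.33e-09). The gRNA 2 libraries, at 39.4, 33.8 and 36.9 CPM, overlapped the controls; their change of 0.14 (SE 0.06, adjusted p = 0.0429) was lost in 7 of 15 alternatives, with adjusted p up to 0.270. In DU145 it was 0.31 higher with gRNA 2 (SE 0.08, adjusted p = 0.0161), which 2 of 15 alternatives lost (adjusted p up to 0.0702), and at -0.08 with gRNA 10 (SE 0.08). In 22Rv1 it was lower with gRNA 1 and higher with gRNA 10 in every library, but neither -0.26 (SE 0.10, adjusted p = 0.0559) nor 0.27 (SE 0.10, adjusted p = 0.0593) passed; the first passed in 3 of 15 alternatives and the second in 4 of 15.

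CXADR (chr21:17512382-17593579, plus strand) was nearly silent in the PC3 knockout libraries. The controls held 1399, 1451 and 1592 counts, the gRNA 2 libraries 17, 20 and 24 counts, and the gRNA 10 libraries 0, 3 and 0 counts. The gRNA 2 mean was 1.36% of the control mean. A floor of 3 counts per library, the highest count seen with gRNA 10, is 510-fold below the control mean. The gRNA 10 mean lay below this floor.

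Outside PC3, where its values were not used to choose it, CXADR changed with 1 guide. In 22Rv1 it fell with gRNA 1 from 39.5, 52.0 and 38.9 CPM to 29.2, 24.6 and 14.99 CPM, a log2 change of -0.92 (SE 0.21, adjusted p = 0.00408). The lowest value is the library that stood apart; without it the change was -0.70 (SE 0.12). With gRNA 10 the 22Rv1 libraries held 44.0, 47.3 and 45.3 CPM, within the control range (0.07, SE 0.20). In DU145 the changes were 0.01 (SE 0.13) and 0.23 (SE 0.13), and neither passed; the gRNA 10 change passed in 3 of 15 alternatives, each of which leaves out 1 or all of the gRNA 2 libraries (adjusted p from 0.00121 to 0.372 over the 15).

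MAL2, on chromosome 8, was almost absent from the DU145 controls and present in both DU145 groups labelled as RIPK2 knockout, of which the gRNA 10 group held RIPK2 at 81.9% of control. It had 18, 12 and 24 counts in the controls, 1249, 1528 and 1163 with gRNA 2, and 566, 564 and 571 with gRNA 10. These are means of 0.870, 66.9 and 28.4 CPM, and the levels with both guides were below the 332, 427 and 314 CPM of the 22Rv1 controls. In PC3, where it was the highest member per kilobase, MAL2 fell from 505, 496 and 505 CPM to 390, 377 and 372 CPM with gRNA 2 (-0.40, SE 0.03, adjusted p = 8.91e-12) and to 309, 320 and 325 CPM with gRNA 10 (-0.66, SE 0.03, adjusted p = 4.58e-17). In 22Rv1 it did not pass with either guide, at 0.15 (SE 0.11) and -0.11 (SE 0.11).

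CGN, the cytoplasmic scaffold, rose with both guides in 22Rv1. From 95.5, 85.5 and 94.4 CPM in the controls it went to 159, 157 and 171 CPM with gRNA 1 (0.82, SE 0.08, adjusted p = 2.61e-05) and to 211, 204 and 199 CPM with gRNA 10 (1.16, SE 0.09, adjusted p = 2.24e-06). In PC3 it also rose with both, from 18.5, 18.2 and 19.8 CPM to 27.9, 30.8 and 27.5 CPM (0.61, SE 0.07) and to 22.5, 21.5 and 20.1 CPM (0.18, SE 0.07, adjusted p = 0.0171); the gRNA 10 change was lost in 3 of 15 alternatives, with adjusted p up to 0.0863. In DU145 it was lower: 105, 99.97 and 101 CPM in the controls, 88.2, 89.3 and 37.8 CPM with gRNA 2 and 61.0, 63.4 and 60.2 CPM with gRNA 10. The gRNA 10 fall of -0.73 (SE 0.25, adjusted p = 0.0382) was lost in 7 of 15 alternatives, with adjusted p up to 0.103. The gRNA 2 change of -0.50 did not pass (adjusted p = 0.139). Without the library that stood apart it was -0.20, with an adjusted p of 0.0233. The low CGN value of that library is among those given for setting it apart, so this p-value is not a separate test of CGN.

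The populations of the 2 guides were compared with each other in each line. In 22Rv1, 6 of 10 members differed between gRNA 10 and gRNA 1, 5 of them higher with gRNA 10, where 35.6% of all genes differed. In DU145, 6 of 9 differed between gRNA 10 and gRNA 2, all lower with gRNA 10, against 38.8% of all genes. Without the library that stood apart 7 of 9 did, with CGN added. In PC3, 8 of 9 differed, 3 higher and 5 lower with gRNA 10, against 73.4%. The difference was -3.69 for CLDN4 in DU145 (SE 0.25, adjusted p = 4.29e-06) and 1.44 for OCLN in PC3 (SE 0.11, adjusted p = 7.78e-13). Across both guides of a line, which share controls, the share of all genes that changed in 1 direction with both was 24.6% for 22Rv1, 16.1% for DU145 and 34.2% for PC3. Among the members, 2 of 10 (CLDN1 and CGN) rose with both guides in 22Rv1, 2 of 9 (CLDN3 and CLDN7) fell with both in DU145, and 7 of 9 changed in 1 direction with both in PC3.

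The effect of RIPK2 targeting, as the mean of both guides against control, was compared between lines in the model of all libraries. It differed between DU145 and 22Rv1 for 6 of 9 members, where 47.1% of all genes differed, between PC3 and 22Rv1 for 8 of 9, against 45.3%, and between PC3 and DU145 for 5 of 8, against 42.2%. OCLN and MARVELD2 had a higher effect in PC3 than in both other lines, by 1.98 (SE 0.19) and 0.98 (SE 0.15) against 22Rv1. CLDN1 had a higher effect in 22Rv1 than in both others, and CGN was highest in 22Rv1 and lowest in DU145. The first pair's count was 3 of 7 members when at least 10 counts in every library were required, which left CLDN1 and CXADR untested, and CLDN4 then did not pass.

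Genes beside the members were examined for changes in the same direction, within 1 Mb on either side and by GENCODE positions; this was chosen after the values were seen. In PC3, BTG3, an antiproliferative gene on the opposite strand whose 3′ end lies 73 bases from that of CXADR, fell from 9.29 CPM (SD 0.72, n = 3) to 2.66 CPM (SD 0.18) with gRNA 2 and 0.514 CPM (SD 0.05) with gRNA 10. The log2 changes were -1.80 (SE 0.12) and -4.16 (SE 0.17). C21orf91, 195 kb further along, was at 19.0, 20.6 and 18.2 CPM in the same groups and neither change passed. The other tested neighbour, the noncoding MIR548XHG, 1049 kb from the start of CXADR, fell with both guides from 4.15 CPM to 1.79 and 0.835 CPM (-1.21, SE 0.16, and -2.30, SE 0.19). BTG3-AS1, which was not tested, had 10 to 20 counts in the PC3 controls, 0 to 3 with gRNA 2 and 0 with gRNA 10. Reads that run past the end of CXADR could be counted to BTG3; how far this enters was not tested.

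**Figure D4:**
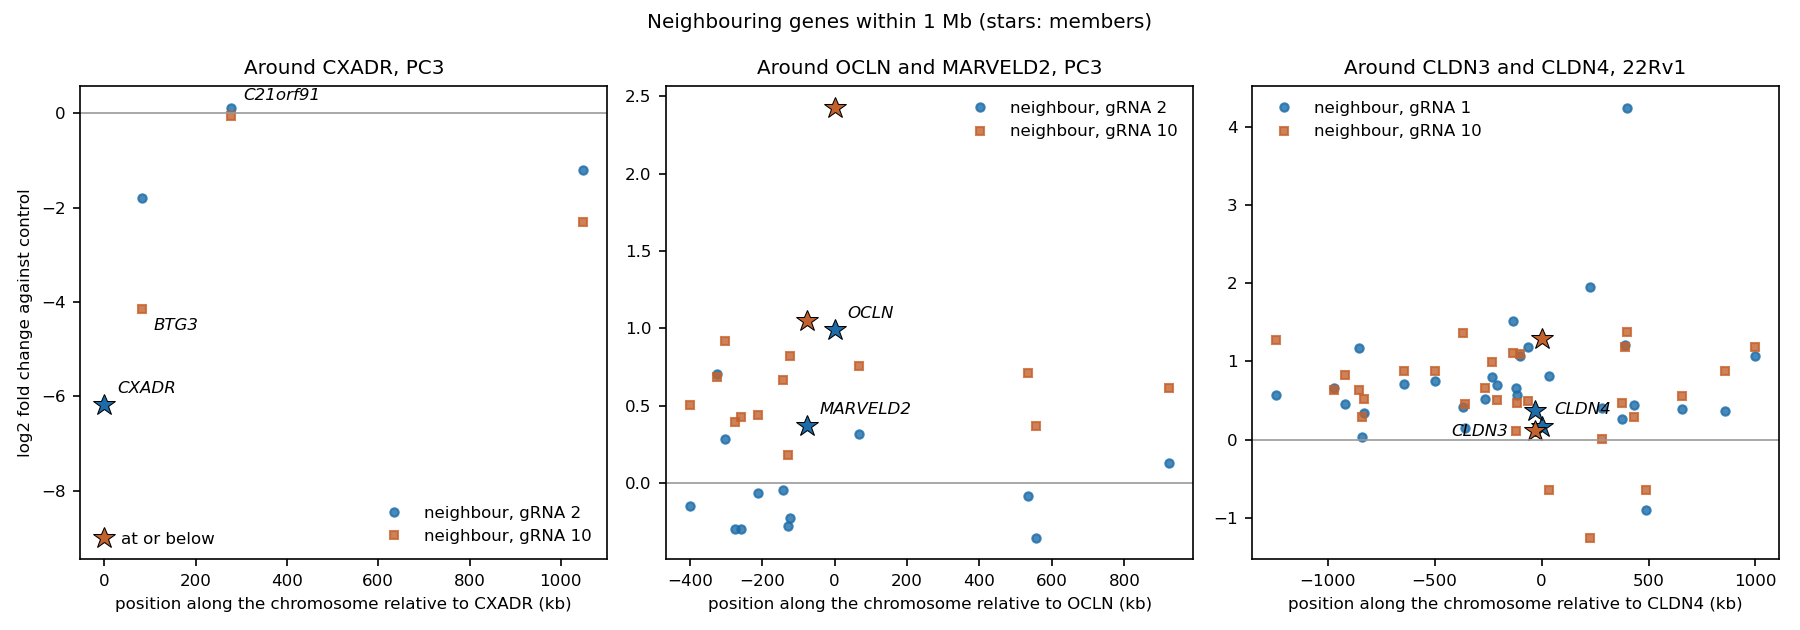
Log2 fold change of the members (stars) and of every tested neighbour within 1 Mb, against position relative to CXADR, OCLN or CLDN4 in kilobases, for both RIPK2 guides. BTG3 lies low beside CXADR in PC3 while C21orf91 sits at 0, all 13 neighbours of OCLN are above 0 with gRNA 10 in PC3, and most neighbours of CLDN4 are above 0 in 22Rv1; the CXADR star of gRNA 10 is a bound.

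Around OCLN and MARVELD2 in PC3, 13 of 13 neighbours were also higher with gRNA 10, with a median of 0.61 against 2.43 for OCLN and 1.05 for MARVELD2; 37.9% of all genes were higher in that comparison. They include CCNB1, RAD17 and CENPH, and also GTF2H2B, SERF1B and SMN2, which have near-identical copies. With gRNA 2, 3 of the 13 were higher and 6 lower, where 32.1% and 31.5% of all genes were, with a median of -0.08, while both members rose. In DU145 with gRNA 10, where both members fell, 3 of 13 neighbours were higher and 0 lower, against 20.2% and 19.8% of all genes.

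Around CLDN4 most neighbours were higher in 22Rv1 with both guides and lower in PC3 with gRNA 10. In 22Rv1, 21 of 29 were higher with gRNA 1 (median 0.66) and 19 of 29 with gRNA 10 (median 0.63). With each guide 1 was lower. Of all genes, 25.6% were higher with gRNA 1 and 20% with gRNA 10, and 22.9% and 20.6% were lower. CLDN4 itself was at 0.16 and 1.29, and CLDN3 at 0.36 and 0.11. In PC3 with gRNA 10, 26 of 30 neighbours were lower and 0 higher, against 35.6% of all genes lower, with a median of -0.55 beside -0.92 for CLDN4 and -0.69 for CLDN3; with gRNA 2, 12 were lower and 4 higher, against 31.5% and 32.1% of all genes, and the median was -0.09, beside -0.77 and -0.13. In DU145 with gRNA 10, 15 of 30 were lower and 0 higher, against 19.8% of all genes lower, with a median of -0.43 beside -0.58 and -0.76. Gene copy number was not measured here, and its part in these values was not tested.

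Of the 7 neighbours of MAL2 tested in DU145, 3 were higher and 1 lower with gRNA 2 and 5 higher and 0 lower with gRNA 10, where 34.0% and 40.0% of all genes changed. ENPP2, which makes lysophosphatidic acid, and TNFRSF11B, the decoy receptor osteoprotegerin, rose with both guides, as did DSCC1, a replication protein (0.67, SE 0.13, and 0.45, SE 0.13), while DEPTOR fell with gRNA 2 (-0.76, SE 0.20). ENPP2 went from 0.178 CPM (SD 0.12, n = 3) to 3.10 CPM (SD 1.87) with gRNA 2 and 17.4 CPM (SD 1.36) with gRNA 10. TNFRSF11B had at most 1 count in the controls, 4 to 27 counts with gRNA 2 and 19 to 23 counts with gRNA 10. SAMD12 was at 22.3, 21.7 and 21.7 CPM, and neither of its changes passed.

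The other genes of the junction were taken from 7 lists: other claudins, other junction membrane proteins, scaffold and polarity proteins, apical membrane and trafficking proteins, adherens junction proteins, epithelial transcription and splicing factors, and repressors of junction genes. Of 96 genes listed, 76 were tested in 22Rv1 and 73 in DU145 and in PC3. With the first guide and gRNA 10 respectively, 46 and 42 of 76 changed in 22Rv1, where 48.5% and 40.6% of all genes did; 22 and 23 were higher and 24 and 19 lower. In DU145 31 and 42 of 73 changed, against 34.0% and 40.0%, with 11 and 15 higher and 20 and 27 lower. In PC3 48 and 57 of 73 changed, against 63.6% and 73.5%, with 32 and 31 higher and 16 and 26 lower. The medians of the listed genes lay between -0.15 and 0.14 in these 6 comparisons. Counts of single lists below are read against the shares of all genes that rose or fell, given for the first guide and gRNA 10. In 22Rv1 25.6% and 20% rose and 22.9% and 20.6% fell. In DU145 17.1% and 20.2% rose and 16.96% and 19.8% fell. In PC3 32.1% and 37.9% rose and 31.5% and 35.6% fell.

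Among the other claudins, 3 of 4 tested rose with gRNA 10 in 22Rv1 and 2 of 4 with gRNA 1, and 0 fell with either guide. CLDN11 went from 2.61 CPM to 12.4 and 10.1 CPM (log2 changes 2.25 and 1.96). In DU145 1 of 6 rose and 4 of 6 fell with gRNA 10, with CLDN15 at -0.62 and -1.21. In PC3 CLDN23 rose (2.46 and 2.83) and CLDN12 fell (-0.33 and -1.23). Of the other junction membrane proteins, LSR (angulin-1), which recruits tricellulin to tricellular contacts, went in PC3 from 2.90 CPM to 51.4 CPM with gRNA 2 and 4.90 CPM with gRNA 10 (4.14, SE 0.08, and 0.75, SE 0.13), the reverse order of MARVELD2 and OCLN. In DU145 the adhesion protein CLMP fell with both guides (-2.95 and -1.70), and in 22Rv1 ILDR1, a tricellular junction protein of the angulin family, did (-0.56 and -1.68).

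Of 23 scaffold and polarity genes, 7 rose and 9 fell with gRNA 1 in 22Rv1, and 5 rose and 7 fell with gRNA 10. The zonula occludens scaffold TJP3 (0.65 and 1.05) rose with both guides there, as CGN did; the first value was 0.41 without the library that stood apart. The angiomotin-like protein AMOTL1 fell from 159 CPM to 11.3 and 35.4 CPM (-3.82 and -2.17) and the atypical protein kinase C PRKCI fell (-1.11 and -0.78). In PC3 the polarity scaffold PATJ (0.64 and 0.95) and MAGI3 (1.32 and 1.23) rose with both guides. In DU145 3 rose and 6 fell with gRNA 2 and 5 rose and 9 fell with gRNA 10, with the polarity genes PARD6A (-0.82 and -1.14) and PRKCZ (-0.81 and -0.50) lower with both.

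Of the apical genes, 4 of 14 tested rose and 1 fell with gRNA 1 in 22Rv1, and 5 rose and 2 fell with gRNA 10. VIL1 (villin, the actin bundler of microvilli) went there from 24.7 CPM to 217 and 184 CPM (3.13 and 2.90), and SYTL2, a Rab27 effector, from 13.7 CPM to 86.8 and 181 CPM (2.66, or 2.30 without the library that stood apart, and 3.72). In DU145 2 of 12 rose and 3 fell with gRNA 2 and 1 rose and 4 fell with gRNA 10, while MAL2 was higher: the apical mucin MUC1 (-2.43 and -1.54) fell with both. In PC3 6 of 13 rose with each guide, where 32.1% and 37.9% of all genes rose, among them the matriptase inhibitor SPINT1 (1.18 and 1.45) and matriptase itself, ST14 (2.46 and 1.75), and 2 and 4 fell. EPCAM, the partner of CLDN7, rose in 22Rv1 (0.59 and 0.89). In DU145 it rose with gRNA 2 (1.92, SE 0.29, and 1.38 without the library that stood apart, which held 356 CPM) and was at -0.77 with gRNA 10 (adjusted p = 0.0542).

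The adherens junction genes had 1 of 13 higher and 7 lower with gRNA 1 in 22Rv1, and 3 higher and 3 lower with gRNA 10. The gene higher with gRNA 1 was CDH2 (N-cadherin), with a log2 change of 5.06 (adjusted p = 1.83e-07). Without the library that stood apart this change was 4.74. CTNNB1 (beta-catenin) went from 782 CPM to 394 and 396 CPM in 22Rv1 (-0.99 and -0.98). In DU145 1 of 11 was higher and 3 lower with gRNA 2, and 2 higher and 1 lower with gRNA 10. In PC3 5 of 12 were higher and 5 lower with gRNA 2, and 6 higher and 2 lower with gRNA 10. CTNNA1 (alpha-catenin), which PC3 is known to lack, was at 1.38 CPM in the PC3 controls against 441 CPM in 22Rv1 and 485 CPM in DU145. CDH1 (E-cadherin) was at 420, 20.2 and 15.5 CPM in the controls of 22Rv1, DU145 and PC3, and it changed with 1 guide in 22Rv1 (gRNA 1, -0.31, and -0.20 without the library that stood apart) and with 1 in PC3 (gRNA 10, 0.43). In DU145 gRNA 2 it passed only without the library that stood apart (0.76, SE 0.11, adjusted p = 7.68e-05, against 0.145 with it).

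Control levels of the regulators were not tested between lines. ZEB1, a repressor of epithelial genes, was at 0.571 CPM in the 22Rv1 controls, 25.9 CPM in DU145 and 28.99 CPM in PC3. Its changes in PC3 did not pass (-0.11 and -0.16), and in DU145 it fell with gRNA 2 (-0.55, SE 0.13). GRHL2, a grainyhead activator of claudin genes, was at 118 CPM in 22Rv1, where it fell with both guides (-1.03, SE 0.08, and -0.63, SE 0.08), and at most 2 counts in the DU145 controls and 6 in those of PC3, where it did not pass the filter.

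In PC3 with gRNA 10 the epithelial splicing factor ESRP1 went from at most 2 counts in the controls to 181 to 250 counts, or 10.5 CPM, and OVOL2, a repressor of ZEB1, from at most 2 counts to 12 to 16 counts; both passed the test (adjusted p = 1.10e-16 and 1.92e-05). With gRNA 2 ESRP1 had at most 4 counts. In DU145 ESRP1 rose with gRNA 2 (0.39) and fell with gRNA 10 (-1.57). Of the epithelial factors, 4 of 10 rose and 4 fell with gRNA 1 in 22Rv1 and 4 rose and 5 fell with gRNA 10: OVOL1 (2.79 and 3.20) and ELF3 (2.54 and 2.13) rose, and EHF fell from 416 CPM to 51.4 and 119 CPM (-3.01 and -1.81). In DU145 3 of 8 rose and 1 fell with gRNA 2 and 2 rose and 3 fell with gRNA 10, and in PC3 2 of 8 rose and 2 fell with gRNA 2 and 4 rose and 4 fell with gRNA 10; ELF3 rose with both guides in DU145 (0.50 and 1.43) and in PC3 (0.51 and 0.92). Of the repressors, 2 of 3 rose and 0 fell with gRNA 1 in 22Rv1 and 1 rose and 1 fell with gRNA 10. In DU145 1 of 4 rose and 2 fell with gRNA 2 and 1 rose and 1 fell with gRNA 10, and in PC3 3 of 5 rose with gRNA 2 and 3 fell with gRNA 10.

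Patterns across all 27 libraries were compared by Pearson's r of log2 CPM, as a description over libraries that share lines, tables and control groups. For CXADR the 5 most similar of 16321 genes were ANKH (r = 0.950), TNRC6C (0.908), GOLT1A (0.902), its neighbour BTG3 (0.898) and PDCD6IPP2 (0.895). For MAL2 they were PDHA1 (0.952), CBWD2 (0.951), LIFR-AS1 (0.922), PAAF1 (0.920) and C2orf68 (0.920). The r values of CXADR include its PC3 fall, and those of MAL2 its DU145 rise, for which these members were selected. The rank of BTG3 also uses its PC3 fall given above. These lists therefore say nothing further about those changes. The most similar gene was MSRB3 for CLDN1 (0.985), SSBP4 for CLDN3 (0.928), ZNF613 for CLDN4 (0.973), UNG for CLDN7 (0.978), TMC5 for OCLN (0.948), PGM2 for F11R (0.963), FHIT for MARVELD2 (0.969) and MFSD13A for CGN (0.963). After the mean of each line was removed, OCLN and MARVELD2 were the members most alike (r = 0.754). CLDN1 and CGN (0.744) and OCLN and F11R (0.724) followed. CXADR and OCLN had the lowest r (-0.745). That r includes the PC3 fall for which CXADR was selected, so it says nothing further about this pair.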

How the data were processed

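For each cell line the authors deposited raw counts of reads in 1 table, with a row for each gene symbol and a column for each library, per the file headers. The submitters' processing notes name FastQC, STAR, edgeR and the hg38 build without versions or roles; the counting program, its strand setting and the annotation are not given in the sources used here. Groups and replicate numbers came from the sample titles, which number some replicates differently from the library names. The members, gene lists and tests were chosen with earlier results of these data known.

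Counts were analysed with edgeR 4.0.16 in R 4.3.3: filterByExpr (minimum count 10, minimum total 15), TMM factors (0.902 to 1.04), robust quasi-likelihood fits of the 9 libraries of a line with group as the only term, two-sided F tests, and Benjamini-Hochberg adjustment over all genes tested (15198 in 22Rv1, 14908 in DU145, 14718 in PC3), with calls at adjusted p below 0.05. The standard error (SE) is the log2 change divided by the root of the F statistic. Differences between lines came from 1 model of all 27 libraries over 16322 genes of the 20089 symbols in all 3 tables. The procedure was also run on simulated counts with far fewer changed genes than were called here. That run therefore does not show how it behaves at the shares seen in these libraries. A floor of 3 counts is 0.144 to 0.178 CPM; floors cover counting error only. Named genes were, per list and line, up to 3 risen and 3 fallen with both guides ranked by the smaller of both changes, among genes with 10 counts or more on average in a group whose knockout libraries lay outside the control range, plus ZEB1, GRHL2, ESRP1, OVOL2, CDH1, EPCAM and CTNNA1. Fewer are named in the text, and some results are not reported here. Positions are from GENCODE 29. The alternatives were RLE factors, DESeq2 1.42.0, other filters, a replicate block, only the libraries compared, gRNA 10 only and leaving out each library; leaving out both libraries that stood apart was added after seeing the data.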

Additional observations from a re-analysis of the deposited data

Results flagged for a closer look

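The effect of RIPK2 targeting, as the mean of both guides against control on the log2 scale, differed between lines by the test of the difference in the model of all 27 libraries for these members (edgeR, adjusted p below 0.05). In DU145 minus 22Rv1 the difference was -3.28 for CLDN1, -2.05 for CLDN7, -1.60 for CGN, -0.94 for CLDN3, 0.55 for CLDN4 and 0.55 for CXADR. In PC3 minus 22Rv1 it was -3.04 for CLDN1, -1.59 for CLDN4, -0.66 for CLDN3, -0.61 for CGN, -0.57 for MAL2, 0.31 for F11R, 0.98 for MARVELD2 and 1.98 for OCLN. In PC3 minus DU145 it was -2.13 for CLDN4, 0.99 for CGN, 1.14 for MARVELD2, 1.89 for CLDN7 and 2.18 for OCLN. The lines share gRNA 10 but not the other guide. With gRNA 10 alone the CLDN4 difference between DU145 and 22Rv1 was -1.87, the opposite sign, and that between PC3 and DU145 did not pass (adjusted p = 0.246). With gRNA 10 alone CXADR in DU145 minus 22Rv1 (0.16, adjusted p = 0.615) and F11R in PC3 minus 22Rv1 (adjusted p = 0.154) did not pass either.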

How the results depend on the processing

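Of 36 calls of a guide against control, 27 passed under every alternative run and 9 were lost under at least 1. The same held for 20 of 20 calls between guides, 23 of 23 control levels and 14 of 19 differences in knockout effect. The count of members in 22Rv1 gRNA 10 was 3, and 3 to 5 with single libraries left out; that in DU145 gRNA 2 was 5, and 2 to 6. The count for the knockout effect in DU145 minus 22Rv1 was 6, and 3 with at least 10 counts in every library, where 7 members were tested. With single libraries left out, signs turned for values that had not passed. In 22Rv1 gRNA 10 the log2 change ran from -0.0083 to 0.215 for CXADR, from -0.198 to 0.0358 for MAL2, from -0.0281 to 0.182 for CLDN3 and from -0.0183 to 0.128 for CLDN7. For CXADR in DU145 gRNA 2 it ran from -0.150 to 0.139. For CLDN7 it ran from -0.143 to 0.150 in PC3 gRNA 10 against gRNA 2 (0.0027 without gRNA 2 library 2), and from -0.312 to 0.0160 in the PC3 minus 22Rv1 effect. With gRNA 10 only, signs turned in DU145 minus 22Rv1 for CLDN4, which had passed (-1.87), and F11R (-0.36), and in PC3 minus 22Rv1 for CLDN7 (0.15). The cause was not tested. Libraries with the same title number correlated between -0.189 and 0.339, with 1 of 27 pairs over 0.1, so title numbers were not used as pairs. Pairing by the numbers of the library names was not tested. A replicate block left the member counts as they were (6 and 3 in 22Rv1, 5 and 6 in DU145, 8 and 8 in PC3). With it the pathway lists gave 47 and 43 genes in 22Rv1, 29 and 39 in DU145 and 48 and 57 in PC3. CLDN1 in 22Rv1, with 6 to 8 counts per control library, and CLDN7 in PC3, with 27 to 50 counts, are limited by depth.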
